A study of Mus musculus with 36 samples.

Results

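The proteasome genes were taken as the 37 genes, of 24411 in the deposited expression tables, whose symbol begins with Psma, Psmb, Psmc or Psmd and a digit, leaving out the interferon-induced subunits Psmb8, Psmb9 and Psmb10. Of these, 31 encode the constitutive subunits: 7 of the alpha ring, 7 of the beta ring, 6 ATPases and 11 non-ATPases of the regulatory particle. Psmd5, Psmd9 and Psmd10 encode chaperones that help to assemble the ATPase ring. Psma8 encodes an alpha subunit of the testis, and Psmb11 encodes a beta subunit of the thymus epithelium. Psmc3ip shares the symbol pattern but encodes a recombination factor and no proteasome subunit. A total of 36 of the 37 genes passed the filter on low values; Psmb11 did not, and it was listed at 0 in every library except 1 knockout day 5 granulocyte library, where it stood at 0.01 TPM.

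Their transcripts were read from 36 RNA-seq libraries of total RNA from cultured bone marrow cells of the mouse, haematopoietic stem progenitor cells (HSPCs). Cells were control, labelled WT, or carried a conditional knockout of Taf1, labelled Taf1 KO, which encodes the largest subunit of the general transcription factor TFIID. The sources used here give neither the Cre or the agent behind the deletion, nor the exons lost, nor the age of the mice, nor whether the 3 libraries of a group came from different mice, so the p-values measure only the spread between libraries, which may be technical. All cells grew with SCF and IL-3 in medium with 20% horse serum for the first 3 days. Each culture was then divided between a granulocyte course, with SCF, IL-3 and G-CSF to day 5 and G-CSF alone to day 7, and a macrophage course, with GM-CSF and M-CSF to day 5 and M-CSF alone to day 7, every cytokine at 50 ng/ml. This gave 12 groups of 3 libraries: control and knockout at day 0, at day 3, and at days 5 and 7 of each course. The study asked how loss of Taf1 changes the course of gene expression as HSPCs differentiate.

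The proteasome degrades proteins marked with ubiquitin. Its barrel-shaped core has outer alpha rings, which gate the entrance, and inner beta rings, in which Psmb5, Psmb6 and Psmb7 carry the catalytic sites. The regulatory particle binds ubiquitin chains, removes them, and unfolds the substrate with a ring of ATPases. Subunits are needed in fixed proportions, and their genes are known to be driven together, among others by the factor encoded by Nfe2l1, which binds antioxidant response elements when proteasome activity is short. In blood cells the interferon-induced subunits replace the catalytic ones in part of the particles.

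The 37 genes lie on 16 chromosomes, and RefSeq (GRCm38.p6) holds 32 promoter windows, from 250 bases before to 50 after the start, for 30 of them. Promoters are shown for the 3 genes with the largest knockout difference at day 3, Psmc5, Psmc1 and Psmd13, and for 2 catalytic genes that lay lower in the knockout at day 5, Psmb6 and Psmb5. Each is written 5′ to 3′ on the gene's strand, from 250 bases before to 30 after the start. The places are chr11:106255935-106256214 (plus strand), chr12:100109952-100110231 (plus), chr7:140882144-140882423 (plus), chr11:70525107-70525386 (plus) and chr14:54617966-54618245 (minus). Capitals mark matches to the motifs named after the sequences, on either strand.
Psmc5: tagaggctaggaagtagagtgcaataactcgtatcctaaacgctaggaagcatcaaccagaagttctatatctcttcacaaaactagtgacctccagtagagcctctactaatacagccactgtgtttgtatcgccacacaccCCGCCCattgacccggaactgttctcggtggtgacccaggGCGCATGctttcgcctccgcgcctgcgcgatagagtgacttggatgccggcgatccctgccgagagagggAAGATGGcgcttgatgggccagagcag
Psmc1: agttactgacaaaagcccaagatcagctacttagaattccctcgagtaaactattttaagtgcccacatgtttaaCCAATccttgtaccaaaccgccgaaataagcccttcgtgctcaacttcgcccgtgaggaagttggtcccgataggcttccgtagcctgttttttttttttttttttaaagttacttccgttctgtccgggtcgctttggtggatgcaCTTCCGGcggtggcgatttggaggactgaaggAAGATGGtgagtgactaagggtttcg
Psmd13: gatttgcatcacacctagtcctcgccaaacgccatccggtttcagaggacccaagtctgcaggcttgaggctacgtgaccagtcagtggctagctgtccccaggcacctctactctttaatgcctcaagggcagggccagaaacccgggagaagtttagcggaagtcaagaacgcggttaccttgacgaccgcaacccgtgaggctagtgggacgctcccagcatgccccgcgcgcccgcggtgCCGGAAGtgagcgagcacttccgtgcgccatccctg
Psmb6: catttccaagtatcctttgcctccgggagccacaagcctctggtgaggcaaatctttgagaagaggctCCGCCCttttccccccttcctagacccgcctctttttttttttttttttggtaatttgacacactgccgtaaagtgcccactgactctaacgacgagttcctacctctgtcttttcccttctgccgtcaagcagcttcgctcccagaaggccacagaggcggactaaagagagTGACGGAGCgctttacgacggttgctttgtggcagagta
Psmb5: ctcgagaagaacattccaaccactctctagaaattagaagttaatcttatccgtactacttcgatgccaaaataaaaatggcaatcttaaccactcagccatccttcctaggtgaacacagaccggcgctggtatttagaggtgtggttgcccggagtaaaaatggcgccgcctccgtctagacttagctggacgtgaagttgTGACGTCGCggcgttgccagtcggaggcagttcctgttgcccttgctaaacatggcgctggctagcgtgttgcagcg

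A total of 7 motifs were searched, on both strands except for TATAAA, which was searched on the gene's strand. The antioxidant response element core TGACNNNGC was in 5 of the 32 windows (15.6%, against 12.4% of all 32851 windows), those of Psmb5, Psmb6, Psmc6, Psmd12 and Psmd9. In the printed windows it starts 9 bases before the start of Psmb6 and 47 before that of Psmb5. The ETS core CCGGAAG was in 12 windows (37.5%, against 8.86%) and starts 6 bases before the start of Psmd13 and, on the other strand, 28 before that of Psmc1. The YY1-type motif AAGATGG was in 6 windows (18.8%, against 6.34%), among them those of Psmc5 and Psmc1 just past the start. GCGCATG, part of the site of nuclear respiratory factor 1 (encoded by Nrf1, not by Nfe2l1), was in 3 windows (9.38%, against 3.91%), that of Psmc5 included. The remaining shares were 56.2% against 35.7% for the GC box GGGCGG, 40.6% against 37.4% for CCAAT, and 9.38% against 8.32% for TATAAA. None of the marked matches overlap one another. A match is a string of letters in a window and says nothing of binding in these cells.

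Taf1 transcripts stood at 14.1 TPM in control and 8.85 TPM in knockout cells at day 0 (log2 difference −0.61, adjusted p = 1.13e-05). They were 10.7 and 9.34 TPM at day 3, where the libraries overlapped and the difference did not pass (adjusted p = 0.0711), and lower in the knockout at both later days of both courses, by −0.99 to −0.47 on the log2 scale. Whether the reads counted for Taf1 fall in the deleted part is not known. Markers of stem and progenitor cells summed to 277 to 357 TPM at day 0 and to 20.2 to 49.9 TPM at day 7 of the macrophage course. Macrophage markers summed to 1655 to 2463 TPM in control cells at day 7 of the macrophage course, but also to 991 to 1685 TPM in control cells at day 7 of the granulocyte course. At day 3 the groups differed in make-up: macrophage markers summed to 601 to 846 TPM in control and 158 to 259 TPM in knockout libraries, megakaryocyte markers to 1316 to 2305 and 272 to 598 TPM, eosinophil markers to 1774 to 2706 and 522 to 590 TPM, and proliferation genes to 501 to 718 and 895 to 998 TPM. The part of these shifts in the results that follow was not tested, and in bulk RNA fewer cells of a type and less RNA per cell cannot be told apart. TPM is a share of a fixed total, and S100a8 with S100a9 took 0.109% to 23.4% of it, Rpph1 with Rmrp 2.29% to 16.1% and histone genes 3.63% to 17.4%. Results were therefore also computed after median-of-ratios scaling, named where it changes a call. In control replicate 1 at day 5, S100a8 with S100a9 took 4.93% and 5.49% of the TPM in the macrophage and granulocyte course, against 13.9% to 14.5% in the other control libraries of that day.

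Proteasome genes took 0.362% to 0.679% of all TPM over the 36 libraries. In control cells at day 0 the core subunits were the highest: the 7 alpha genes had a median of 219 TPM, with Psma7 highest at 409 TPM and Psma3 lowest at 169 TPM, and the 7 beta genes a median of 265 TPM, from 232 TPM (Psmb2) to 380 TPM (Psmb4). The 6 ATPase genes had a median of 125 TPM, from 76.5 TPM (Psmc2) to 214 TPM (Psmc3). The 11 non-ATPase genes had a median of 117 TPM, from 47.1 TPM (Psmd11, a scaffold subunit of the lid) to 165 TPM (Psmd8, also of the lid). The chaperones were lower, at 17.5 TPM (Psmd9) to 58.5 TPM (Psmd5), and Psma8 had 4.43 ± 0.588 TPM (SD, n = 3). By these medians the core genes stood above those of the regulatory particle in TPM, which is a level per transcript length.

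The summed share was lowest in control cells at day 3. It was 0.588% ± 0.0395 (SD, n = 3) at day 0 and 0.396% ± 0.0305 at day 3 in control cells, and 0.642% ± 0.0415 and 0.551% ± 0.0193 in knockout cells. At day 3 the control libraries ran from 0.362% to 0.421% and the knockout libraries from 0.532% to 0.570%, without overlap. With S100a8, S100a9, Rpph1, Rmrp and the histone genes left out of the total, the day 3 means were 0.544% and 0.813%, so the gap did not narrow. The day 0 means were then 0.811% in control (0.792% to 0.834%) and 0.938% in knockout cells (0.911% to 0.965%), without overlap. At day 5 the order was turned around, with 0.514% ± 0.0104 in control and 0.469% ± 0.00738 in knockout cells of the macrophage course and 0.55% ± 0.016 and 0.497% ± 0.00833 in the granulocyte course. With the same RNAs left out, the day 5 means were 0.709% and 0.735%, and 0.750% and 0.766%, with the knockout on the higher side. At day 7 the share was 0.562% ± 0.0605 in control and 0.632% ± 0.0228 in knockout cells of the macrophage course. It was 0.446% ± 0.0392 and 0.484% ± 0.0268 in the granulocyte course, where the control libraries (0.419% to 0.491%) overlapped those of day 3. The genotypes overlapped at day 7 in both courses. Without the RNAs named above, the day 7 means were 0.728% in control and 0.735% in knockout cells of the macrophage course. They were 0.624% and 0.637% in the granulocyte course.

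**Figure D1:**
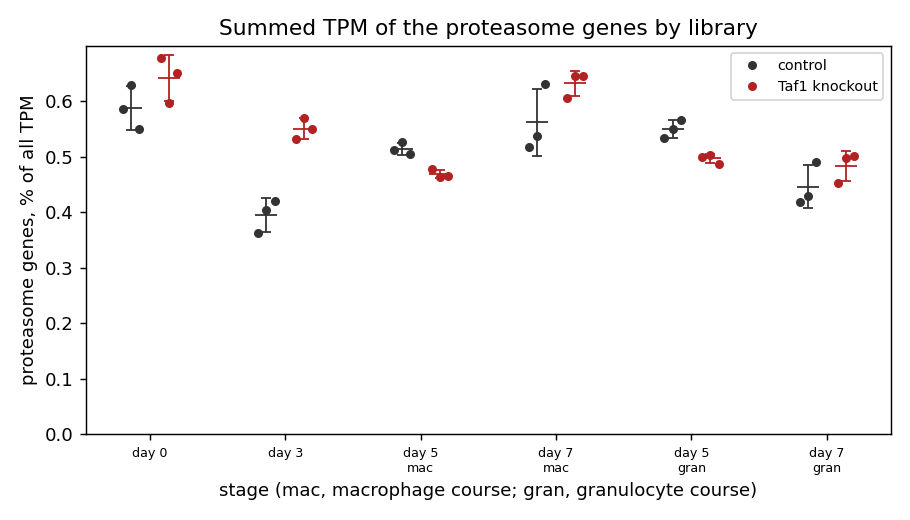
Summed TPM of the 37 proteasome genes as a percentage of all TPM (vertical axis, from 0) by stage, with control libraries in black and Taf1 knockout libraries in red. Points are libraries, the wide bars are means and the thin bars are SDs (n = 3). The control libraries at day 3, at 0.362% to 0.421%, lie below all knockout libraries of that day.

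In control cells most proteasome genes fell over the first 3 days of culture. Of 36 genes tested, 29 were lower at day 3 than at day 0 and 1 was higher; over all 11953 genes tested, 39.6% were lower and 33.3% higher. The lower genes were 6 of 7 alpha, 7 of 7 beta, 5 of 6 ATPase and 8 of 11 non-ATPase genes, 1 of 3 chaperones (Psmd9), Psma8 and Psmc3ip. The median log2 change of the 36 genes was −0.59, against −0.07 for all genes. After scaling, 27 were lower and 3 higher (37.7% and 37.9% of all genes). The steepest fall among subunits was that of Psmc5, an ATPase of the ring that drives unfolding. Its control libraries, in the order of replicates 1 to 3 as in all such values, held 107, 113 and 97.5 TPM at day 0 and 32.5, 45.1 and 46.7 TPM at day 3, a log2 change of −1.35 (SE 0.12, adjusted p = 5.95e-09). All 3 day 3 libraries were at less than the lowest day 0 library. Psmd3, a lid scaffold subunit, went from 88.3, 94.8 and 88.1 TPM to 35.6, 42.2 and 42.2 TPM (log2 change −1.16, adjusted p = 1.77e-09). Psmc3ip went from 30.8 ± 3.03 to 11.3 ± 2.43 TPM (log2 change −1.38, adjusted p = 8.52e-09). Psmd8 was the exception, at 156, 179 and 158 TPM at day 0 and 215, 184 and 200.1 TPM at day 3 (log2 change 0.28, adjusted p = 0.039); without control day 0 replicate 1 or 3, or control day 3 replicate 1 or 3, its adjusted p was 0.075 to 0.138.

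The fall was smaller in knockout cells. There 16 of the 36 genes were lower at day 3 than at day 0 and 0 were higher, with 35.9% of all genes lower and 22.8% higher, and the median log2 change was −0.24. Wherever a count of the 36 genes is given as 0 here, it was also 0 at an unadjusted p under 0.05 in limma, except for 1 lower gene at day 0, 2 higher genes in the genotype difference of the day 3 to day 7 change in the granulocyte course, and 1 gene in the comparison of courses between genotypes. The 16 became 9 without knockout day 0 replicate 1, and 10 without knockout day 3 replicate 1, while after scaling 9 were lower and 2 higher (29% and 29.8% of all genes). Psmc5 libraries of the knockout held 119.9, 92.4 and 116 TPM at day 0 and 77.8, 85.4 and 83.3 TPM at day 3. That change, −0.40 (adjusted p = 0.00977), missed the threshold without knockout day 0 replicate 1 (adjusted p = 0.0541). Psma7, an outer ring subunit, went from 459, 426 and 442 to 295, 333 and 326 TPM (log2 change −0.47, adjusted p = 6.48e-06).

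The change over the first 3 days differed between genotypes for 19 of 36 genes, all of them with a smaller fall, or a rise, in the knockout; over all genes tested, 15% had a higher and 17.3% a lower change in the knockout. The 19 were 4 of 7 alpha, 4 of 7 beta, 4 of 6 ATPase and 6 of 11 non-ATPase genes and Psmd9, a chaperone. Psmc5 had the largest difference of changes, 0.95 (SE 0.18, adjusted p = 0.000536) on the log2 scale. It was followed by Psmc1, another ATPase, at 0.83 (SE 0.19, adjusted p = 0.00223), and Psmd7, which pairs with the deubiquitinase subunit Psmd14 in the lid, at 0.82 (SE 0.18, adjusted p = 0.00219). Psmd7 libraries held 82.1, 82.2 and 76.1 TPM at day 0 and 31.4, 41.9 and 42.1 TPM at day 3 in control cells. In knockout cells they held 82.0, 52.5 and 81.3 TPM and 58.2, 65.4 and 57.1 TPM. The day 3 libraries of the control stand apart from the other 3 groups for this gene. After scaling, 22 genes had a higher change and 0 a lower one (20.9% and 18.9% of all genes).

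**Figure D2:**
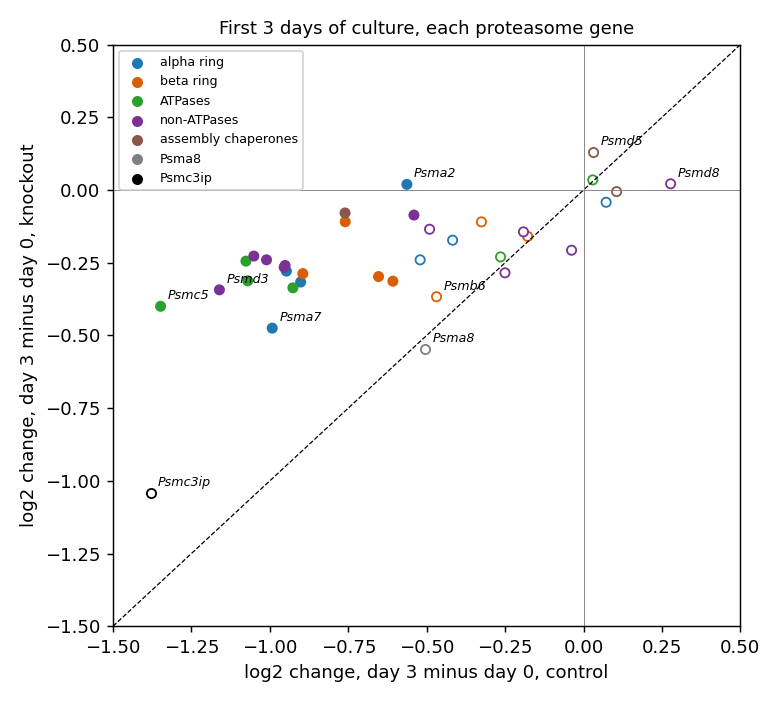
Log2 change from day 0 to day 3 of each of the 36 tested proteasome genes in control cells (horizontal axis) and in knockout cells (vertical axis), coloured by role. Filled points are genes whose change differed between genotypes (adjusted p under 0.05), the dashed line marks equal changes, and the 19 filled points all lie above it.

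At day 3, 28 of 36 proteasome genes were higher in the knockout than in the control and 1 was lower, while 26.5% of all genes tested were higher and 26.7% lower. The median log2 difference was 0.51 for the 36 genes and −0.0095 for all genes, and after scaling the counts were again 28 and 1 (27.1% and 31.1% of all genes). Every kind of subunit was represented: 6 of 7 alpha, 5 of 7 beta, 5 of 6 ATPase and 9 of 11 non-ATPase genes were higher, with 2 of 3 chaperones and Psmc3ip. These are the control libraries in which the genes had fallen since day 0, so the comparisons share them.

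Psmc5 had the largest difference at day 3. Against 32.5 to 46.7 TPM in control, the knockout libraries held 77.8 to 85.4 TPM, a log2 difference of 0.99 (SE 0.12, adjusted p = 2.03e-06). The lowest knockout library was above the highest control library. Psmd13, a lid subunit, had 50.0, 64.7 and 66.8 TPM in control and 104, 121 and 123 TPM in knockout libraries (log2 difference 0.94, SE 0.13, adjusted p = 6.04e-06). It overlaps the coding gene Sirt3 on the other strand. Psma4, Psmb7, Psmc3, Psmc3ip, Psmd1, Psmd5 and Psmd9 also overlap a coding gene on the other strand, Psma2 and Psmd1 one on the same strand, and the strand setting of the counting is not stated. Psmc1 had 53.8, 74.7 and 77.1 TPM and 117, 132 and 128 TPM (log2 difference 0.88, SE 0.13, adjusted p = 1.36e-05). Again neither pair of groups overlapped, which was a condition for naming genes by the size of their change. Psmb3, a beta ring subunit without a catalytic site, had 187, 195 and 205 TPM in control and 349.5, 360.3 and 362 TPM in knockout libraries (log2 difference 0.86, SE 0.08, adjusted p = 3.15e-08), and here too every knockout library was above every control library.

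The catalytic subunits had smaller differences than these 4 genes. Psmb7, with the trypsin-like site, had 134, 165 and 168 TPM in control and 209, 223 and 213 TPM in knockout libraries (log2 difference 0.47, SE 0.10, adjusted p = 0.00034). Psmb5, with the chymotrypsin-like site, had 191, 185 and 191 TPM and 259, 222 and 219.7 TPM (log2 difference 0.30, adjusted p = 0.0239); without control replicate 2 or knockout replicate 1 of day 3 its adjusted p was 0.0639 or 0.12. Psmb6, with the caspase-like site, had 199, 183 and 192 TPM and 210.2, 209 and 211 TPM and did not pass the threshold (adjusted p = 0.304). Its knockout libraries all lay above the control libraries, by little. Reads of Psmb5, Psmb6 and Psmb7 may be shared with named pseudogenes of these genes. Of the regulatory particle, Psmd2, a scaffold that receives ubiquitin carriers, had 97.4, 105 and 112 TPM in control and 149, 159 and 153 TPM in knockout libraries (log2 difference 0.55, SE 0.10, adjusted p = 7.89e-05). Psmd14, which cuts ubiquitin chains from the substrate, had 99.6, 113 and 123 TPM and 123, 144 and 132 TPM, which overlapped (log2 difference 0.25, adjusted p = 0.0345; adjusted p 0.0593 to 0.178 without any one of control replicate 1 or 2 or knockout replicate 2 or 3).

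The genes that did not pass at day 3 were, beside Psmb6, the alpha gene Psma6, the beta gene Psmb1, the ATPase gene Psmc6, the lid gene Psmd8, the ubiquitin receptor gene Psmd4 and the chaperone gene Psmd10. They are named here after their values were seen. Psma6 had 212, 239 and 237 TPM in control and 223, 239 and 222 TPM in knockout libraries, in the same range. Psmd8 had 215, 184 and 200.1 TPM and 191, 193 and 193 TPM, also in the same range. Psmd4 had 127, 124 and 136 TPM and 137, 146 and 143 TPM (adjusted p = 0.241). The 1 gene that was lower was the testis subunit Psma8, at 2.30, 3.23 and 2.96 TPM in control and 1.85, 2.19 and 1.59 TPM in knockout libraries (log2 difference −0.41, adjusted p = 0.0284), and without control replicate 2 or 3, or knockout replicate 1 or 3, its adjusted p was 0.0594 to 0.115.

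**Figure D3:**
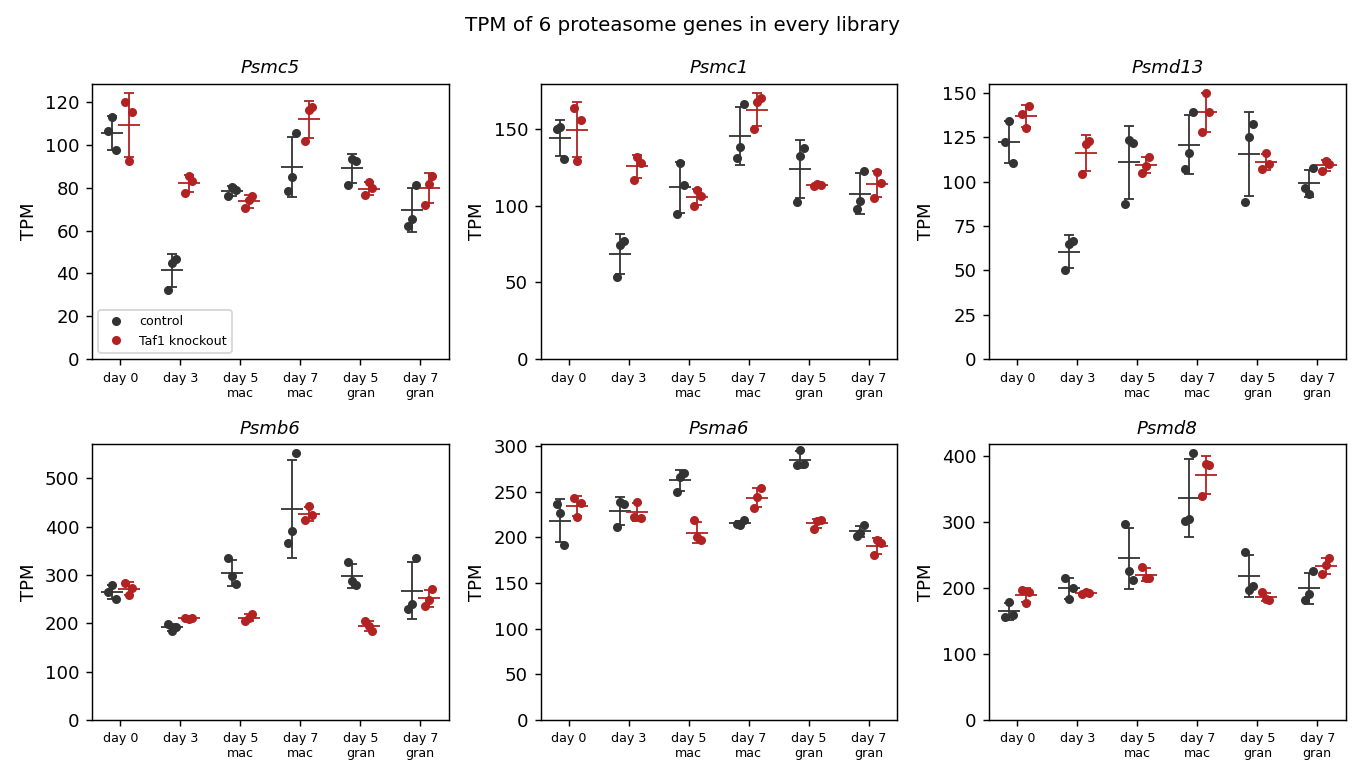
TPM (vertical axes, from 0) of 6 proteasome genes in every library by stage, control in black and Taf1 knockout in red, with means and SDs (n = 3). Psmc5, Psmc1 and Psmd13 are lowest in the control libraries of day 3, Psmb6 and Psma6 are lower in the knockout at day 5, and Psmd8 does not dip at day 3.

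From day 3 to day 7 more proteasome genes were called higher than lower in control cells of both courses. Day 7 was not compared with day 0. In the macrophage course 27 of 36 genes were higher at day 7 and 1 was lower (34.5% and 28.9% of all genes), with a median log2 change of 0.47, and after scaling 29 were higher and 1 lower (38.2% and 29.8%). Psmb6 rose most, from 199, 183 and 192 TPM to 365, 392 and 552 TPM (log2 change 1.16, SE 0.11, adjusted p = 9.73e-09). All day 7 libraries exceeded those of day 3, and replicate 3 was the highest. Psmc5 rose to 78.5, 85.0 and 105 TPM at day 7 (log2 change 1.10, SE 0.12, adjusted p = 1.8e-07). The chaperone gene Psmd5 was the gene that fell, from 51.9, 63.9 and 64.3 to 47.7, 49.7 and 49.9 TPM (log2 change −0.28, adjusted p = 0.00866), and without control day 3 replicate 3 its adjusted p was 0.05. The granulocyte course had 15 of 36 genes higher and 3 lower (19.7% and 35% of all genes), and after scaling 28 were higher and 2 lower (35% and 26.6% of all genes). Without control day 3 replicate 1, 10 were higher and 7 lower, and without control day 7 replicate 3, 10 and 6. Psmc5 rose there too, to 62.3, 65.5 and 81.2 TPM (log2 change 0.74, SE 0.13, adjusted p = 5.35e-05), as did Psmd13, to 96.4, 92.8 and 108 TPM (log2 change 0.71, SE 0.13, adjusted p = 8.26e-05). The genes that were lower were Psma8, Psmd5 and Psmc6; Psmc6 did not pass without any one of 4 libraries (control day 3 replicate 2 or 3, control day 7 replicate 1 or 2, adjusted p 0.0598 to 0.152) or after scaling (0.295).

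In knockout cells of the macrophage course 13 of 36 genes rose from day 3 to day 7 and 2 fell (36.3% and 25.7% of all genes), with a median log2 change of 0.12, and after scaling 11 rose and 3 fell (33.3% and 32.4%). Without knockout day 3 replicate 1, 8 rose and 2 fell. Psmb6 again rose most, from 210.2, 209 and 211 to 413, 442 and 424 TPM (log2 change 1.02, SE 0.11, adjusted p = 5.94e-08), followed by Psmd8, from 191, 193 and 193 to 339, 389 and 388 TPM (log2 change 0.94, SE 0.12, adjusted p = 6.38e-07). Both exceeded every day 3 library. The 2 genes that fell were Psmd5 (log2 change −0.34, adjusted p = 0.00207) and Psma7 (log2 change −0.18, adjusted p = 0.0238), the latter not passing without any one of knockout day 3 replicate 2 or 3 or knockout day 7 replicate 1 or 3 (adjusted p 0.0552 to 0.101). Over the granulocyte course 2 of 36 genes rose and 18 fell (27.1% and 28.7% of all genes), with a median of −0.27, after scaling 4 rose and 18 fell (32.1% and 30.7%), and without knockout day 3 replicate 2, 1 rose and 11 fell. Psmd3 fell from 67.8, 74.4 and 71.8 to 52.7, 51.1 and 55.9 TPM (log2 change −0.42, SE 0.09, adjusted p = 0.000854). The 2 that rose, Psmd8 and Psmb6, each lost the call without knockout day 7 replicate 2 or 3 (adjusted p 0.0516 or 0.0767 for Psmd8 and 0.0817 or 0.171 for Psmb6), and Psmb6 also without any one knockout day 3 library (0.0876 to 0.0987).

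The change from day 3 to day 7 was lower in the knockout for 15 of 36 genes in the macrophage course and higher for 0, with 13.4% of all genes lower and 21.8% higher. It was lower for 17 in the granulocyte course and higher for 0 (11.4% and 22.3% of all genes). After scaling, 24 were lower in the macrophage course (22.3% of all genes) and 31 in the granulocyte course (24.5%), and 0 were higher in either (20.1% and 19.6%). Psmd6, a lid subunit, had the largest difference in both courses. Its libraries held 51.0, 63.4 and 66.4 TPM in control and 97.1, 112 and 105 TPM in knockout cells at day 3. At day 7 of the macrophage course they held 106, 106 and 129 TPM and 113, 115 and 116 TPM. At day 7 of the other course they held 84.3, 86.4 and 98.4 TPM and 79.3, 87.5 and 82.5 TPM. The groups were apart at day 3 and overlapped at day 7 of both courses. The difference of changes was −0.78 (SE 0.14, adjusted p = 0.000322) in the macrophage and −0.90 (SE 0.14, adjusted p = 7.64e-05) in the granulocyte course. Psmc1 followed with −0.71 (adjusted p = 0.00565) and −0.80 (adjusted p = 0.00278), and Psmd13 with −0.73 (adjusted p = 0.00455) and −0.79 (adjusted p = 0.00207). All of these tests use the day 3 libraries of the earlier comparisons, and those of both courses share them, so they are not separate evidence.

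**Figure D4:**
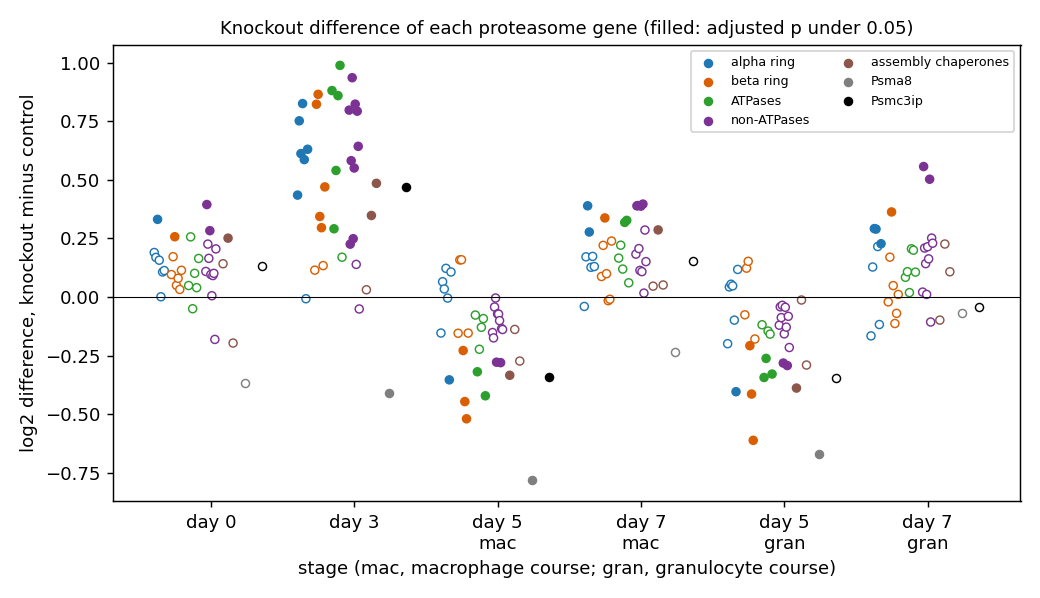
Log2 difference between knockout and control (vertical axis) of each of the 36 tested proteasome genes at 6 stages, coloured by role and filled where the adjusted p was under 0.05. At day 3, 28 genes are filled above 0 and 1 below, while at day 5 the filled genes, 11 in each course, lie below 0.

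At day 5, 11 of 36 genes were lower in the knockout and 0 higher in each course; after scaling, 2 were lower and 6 higher in the macrophage course (19.8% and 18.8% of all genes), so the direction of the family there depends on the scaling, and 8 were lower and 1 higher in the granulocyte course (22.3% and 18%). Before scaling, 37.9% of all genes tested were lower and 5.11% higher in the macrophage course, and 22.8% and 9.2% in the granulocyte course. Scaling moved the median difference of all genes from −0.23 to −0.02 in the macrophage course and from −0.09 to −0.02 in the granulocyte course, and the median of the 36 genes before scaling was −0.15 in each course. The count was 7 in the macrophage course without knockout replicate 2, 7 in the granulocyte course without control replicate 2 or 3 or knockout replicate 2, and 5 without knockout replicate 1 or 3. Macrophage markers summed to 370.2 to 445.5 TPM in knockout and 792 to 1013 TPM in control libraries of the macrophage course, and to 211 to 367 and 643 to 942 TPM in the granulocyte course. Eosinophil markers summed to 537 to 589 and 829.6 to 1453 TPM in the macrophage course, and the part of these shifts was not tested.

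Among the constitutive subunits Psmb6 had the largest difference at day 5 in both courses before scaling, and it was called lower with and without scaling. Its control libraries of the macrophage course held 334, 297 and 281 TPM and its knockout libraries 205, 209.9 and 219 TPM (log2 difference −0.52, SE 0.11, adjusted p = 0.000705, and −0.26 after scaling, with a limma adjusted p of 0.0469, close to the threshold). Those of the granulocyte course held 326, 288 and 279 TPM and 204, 195 and 183 TPM (log2 difference −0.61, SE 0.11, adjusted p = 0.000191, and −0.53 after scaling). The groups did not overlap in either course. The 6 genes called higher in the macrophage course after scaling were Psma2, Psma3, Psma4, Psma7, Psmb2 and Psmb3. Their log2 differences ran from 0.29 (Psma3) to 0.42 (Psmb3), and that of Psmb3 was larger in size than that of Psmb6. Psmb5 had 289, 224 and 222 TPM in control and 211, 159 and 169 TPM in knockout libraries of the macrophage course, a log2 difference of −0.45 (adjusted p = 0.00224) that did not pass after scaling (adjusted p = 0.181). Its granulocyte libraries held 277, 238 and 239.6 TPM in control and 208, 182 and 176 TPM (log2 difference −0.41, SE 0.09, adjusted p = 0.000906, and −0.33 after scaling). Psmc6 had 123, 108 and 109.7 TPM in control and 84.3, 83.4 and 85.5 TPM in knockout libraries of the macrophage course (log2 difference −0.42, adjusted p = 0.0028), which did not pass after scaling (adjusted p = 0.0643). Psmb7 did not pass in either course (adjusted p = 0.195 and 0.123). Psma6, which had not differed at day 3, had 279, 296 and 281 TPM in control and 209, 218 and 219 TPM in knockout libraries of the granulocyte course (log2 difference −0.40, SE 0.08, adjusted p = 0.0005), and the groups stood apart. In the macrophage course it had 249.7, 267 and 271 TPM and 219, 200.1 and 197 TPM (log2 difference −0.35, adjusted p = 0.00128), which did not pass after scaling (adjusted p = 0.232). Psma8, at low values, had 2.39, 1.95 and 1.41 TPM and 0.790, 0.740 and 0.520 TPM in the macrophage course (log2 difference −0.78, adjusted p = 0.000421) and 2.81, 1.74 and 1.90 TPM and 0.990, 1.18 and 0.740 TPM in the granulocyte course (log2 difference −0.67, adjusted p = 0.00339). Psmc5, the gene with the largest difference at day 3, did not pass at day 5 (adjusted p = 0.572 and 0.369).

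At day 7 the share of proteasome genes that were higher in the knockout was near that of all genes in the macrophage course and below it in the granulocyte course. In the macrophage course 10 of 36 genes were higher in the knockout and 0 lower (27.4% and 12.5% of all genes), and after scaling 6 were higher and 1 lower (18.6% and 21.6%). The count was 6 without control replicate 1, knockout replicate 2 or knockout replicate 3. At day 7 of the granulocyte course 6 genes were higher and 0 lower (32.1% and 12% of all genes), but after scaling 2 were higher and 9 lower (20.5% and 24.8%), so the family's direction there turned with the scaling. The 6 became 3 without control replicate 1 or 2 or knockout replicate 2 or 3, and 10 without control replicate 3. Rpph1 with Rmrp took 4.14% to 9.49% of the TPM in the knockout libraries of the macrophage course, against 9.73% to 10.6% in the control, and 2.29% to 7.00% in those of the granulocyte course, against 7.92% to 10.1%. Megakaryocyte markers summed to 1803 to 2249 TPM in knockout and 386 to 419 TPM in control libraries of the macrophage course, and to 1192 to 1623 and 278 to 468 TPM in the granulocyte course. Granulocyte markers summed to 1799 to 3253 and 4095 to 10156 TPM in the macrophage course. The part of these shifts in the counts was not tested.

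Psmd11 and Psmd4 were called higher in the knockout in both courses at day 7, with and without scaling. Psmd11, a scaffold subunit of the lid, had 47.5, 48.3 and 58.6 TPM in control and 61.1, 68.5 and 73.0 TPM in knockout libraries of the macrophage course (log2 difference 0.39, SE 0.09, adjusted p = 0.00245). The granulocyte libraries held 35.1, 39.4 and 42.9 TPM and 48.9, 63.3 and 62.5 TPM (log2 difference 0.56, SE 0.10, adjusted p = 0.000258). In neither course did the groups overlap. Psmd4, a receptor for ubiquitin chains, had 107, 116 and 139 TPM and 152, 163 and 159 TPM in the macrophage course (log2 difference 0.40, SE 0.10, adjusted p = 0.00329, and 0.24 after scaling). In the granulocyte course it had 101, 105 and 124 TPM and 131, 168 and 174 TPM (log2 difference 0.50, SE 0.10, adjusted p = 0.000472, and 0.28 after scaling). At day 3 this gene had been among those without a call. Psmd12, a lid scaffold, and Psma3, an alpha subunit, were higher in the macrophage course by 0.39 (adjusted p = 0.008) and 0.39 (adjusted p = 0.00761). Psmb3 was higher in the granulocyte course, at 219, 216 and 255 TPM in control and 272, 303 and 312 TPM in knockout libraries (log2 difference 0.36, adjusted p = 0.00148), a call that was lost after scaling (adjusted p = 0.218).

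Before culture few of the genes passed the threshold. Their summed share stood apart between genotypes once S100a8, S100a9, Rpph1, Rmrp and the histone genes were left out. At day 0, 5 of 36 were higher in the knockout and 0 lower, against 13.1% and 10.2% of all genes, and after scaling 4 were higher and 2 lower (10.9% and 14.8%). Without control replicate 1 or 3, or knockout replicate 1 or 3, the count was 1. Psmd11 had 48.5, 51.2 and 41.7 TPM in control and 62.2, 65.6 and 58.5 TPM in knockout libraries (log2 difference 0.39, SE 0.09, adjusted p = 0.00399), without overlap. At day 3 it had 41.5, 46.8 and 49.1 TPM and 50.9, 55.5 and 54.5 TPM, and at day 5 it did not pass in either course (adjusted p = 0.133 and 0.795). The other 4 genes with a call at day 0 were Psma3, Psmb3, Psmd5 and Psmd14, of which Psmb3 did not pass after scaling (adjusted p = 0.0606). The catalytic genes were not among them (adjusted p = 0.636 for Psmb5, 0.879 for Psmb6 and 0.42 for Psmb7).

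At day 7 the courses themselves differed. In control cells 25 of 36 genes were higher in the macrophage than in the granulocyte course and 0 were lower, with 36.3% of all genes higher and 10.3% lower, but after scaling 7 were higher and 1 lower (19.9% and 19.5% of all genes). The count was 9 without control granulocyte replicate 1, 11 without control granulocyte replicate 2 and 14 without control macrophage replicate 3. In knockout cells 28 were higher and 0 lower (37.5% and 15.4%), and after scaling 18 and 0 (27.1% and 24.6%). Psmd8 had 302, 304 and 406 TPM in the macrophage and 182, 191 and 226 TPM in the granulocyte course of the control (log2 difference 0.74, SE 0.12, adjusted p = 0.00106, and 0.53 after scaling). In the knockout it had 339, 389 and 388 TPM and 221, 235 and 245 TPM (log2 difference 0.67, SE 0.12, adjusted p = 0.00126). The courses did not overlap for this gene in either genotype. Psmb6 had 365, 392 and 552 TPM and 229, 239 and 335 TPM in the control (log2 difference 0.70, SE 0.17, adjusted p = 0.00638, and 0.48 after scaling). In the knockout it had 413, 442 and 424 TPM and 236, 248 and 271 TPM (log2 difference 0.76, SE 0.17, adjusted p = 0.00313). The difference between the courses did not differ between genotypes for any of the 36 genes at the threshold in limma's interaction test (1.65% of all genes were higher and 1.61% lower). At an unadjusted p under 0.05 it did for 1 gene, and after scaling 1 gene passed, higher (3.15% of all genes were higher and 2.77% lower).

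The wider pathway was read from lists of related genes. At day 3, 3 of 6 other assembly factors were higher in the knockout and 1 was lower, against 26.5% and 26.7% of all genes. Pomp, which matures the beta ring, had 108, 137 and 125 TPM in control and 202, 224 and 211 TPM in knockout libraries (log2 difference 0.78, SE 0.14, adjusted p = 0.000124). Psmg3, a chaperone of the alpha ring, had 23.3, 27.2 and 32.2 TPM and 42.0, 50.8 and 49.2 TPM (log2 difference 0.77, SE 0.12, adjusted p = 1.85e-05). Both dipped at day 3 in the control, as the subunit genes did, and in each the groups stood apart. Akirin2, which carries proteasomes into the nucleus, went the other way, with 48.3, 51.6 and 54.8 TPM in control and 31.6, 35.1 and 32.0 TPM in knockout libraries (log2 difference −0.63, SE 0.11, adjusted p = 0.000101). It was also lower at day 5 of the macrophage course, at 69.3, 45.9 and 49.2 TPM and 32.9, 32.0 and 32.0 TPM (log2 difference −0.72, adjusted p = 5.07e-05), where control replicate 1 was the highest.

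Of the 8 genes of the Nfe2l1 axis, 3 were higher and 2 lower in the knockout at day 3, near the shares of all genes (26.5% and 26.7%). Nfe2l1 itself was lower, with 47.3, 45.6 and 49.2 TPM in control and 24.6, 28.3 and 27.9 TPM in knockout libraries (log2 difference −0.79, SE 0.20, adjusted p = 0.00275). At that day its transcripts were lower in the group in which proteasome genes were higher, and a link between them was not tested. At day 5 it had 85.9, 34.4 and 36.2 TPM and 27.7, 27.8 and 26.7 TPM in the macrophage course (log2 difference −0.77, adjusted p = 0.00482). In the granulocyte course it had 104, 32.8 and 31.2 TPM and 25.3, 26.3 and 27.8 TPM (log2 difference −0.82, adjusted p = 0.0203). Control replicate 1 stood far above the other libraries in both courses, and without it the granulocyte difference was −0.26 (adjusted p = 0.0566); without knockout replicate 1 or 2 it did not pass either (adjusted p = 0.0544 and 0.055). Vcp, the unfoldase that frees the factor from the endoplasmic reticulum, had 140.4, 147 and 148 TPM in control and 189, 216 and 199 TPM in knockout libraries at day 3 (log2 difference 0.47, SE 0.08, adjusted p = 5.06e-05), and 2 of 3 genes of its cofactors were higher, on the same background.

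Of 9 genes that process ubiquitin at the proteasome, 5 were higher and 1 lower in the knockout at day 3 (26.5% and 26.7% of all genes), and of 5 activators and inhibitors 1 was higher, Psme3, a nuclear cap of the core. Psme3 had 27.3, 34.2 and 33.4 TPM in control and 49.1, 57.1 and 53.5 TPM in knockout libraries (log2 difference 0.74, SE 0.10, adjusted p = 3.61e-06). Uchl5, a deubiquitinase of the particle, had 33.4, 36.8 and 39.7 TPM and 49.2, 59.7 and 56.0 TPM (log2 difference 0.57, SE 0.09, adjusted p = 1.54e-05). Of the further subunits, Shfm1 was higher (log2 difference 0.43, adjusted p = 0.000549) and Adrm1 did not pass (adjusted p = 0.0577). All 3 interferon-induced subunit genes fell from day 0 to day 3 in both genotypes, Psmb10 from 133 ± 7.59 to 41.4 ± 4.19 TPM in control cells (log2 change −1.66, adjusted p = 6.96e-13), and in the knockout at day 3 Psmb10 alone was higher (log2 difference 0.36, adjusted p = 0.00121). At day 7 of the macrophage course 5 of 5 activators and inhibitors were higher in the knockout before scaling (27.4% of all genes), Psme4 by 0.52 (adjusted p = 5.55e-05) and Psme3 by 0.44 (adjusted p = 0.0014). The median difference of all genes there was 0.12 before scaling and −0.01 after it. Of 6 genes of ubiquitin and its activation, 1 was higher and 2 lower at day 3, against the same shares of all genes. Rps27a, which encodes ubiquitin fused to a ribosomal protein, was lower at all 6 stages, by −0.46 at day 0, −0.61 at day 3, −0.78 and −0.51 at days 5 and 7 of the macrophage course and −0.66 and −0.51 at those of the granulocyte course, on the log2 scale.

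**Figure D5:**
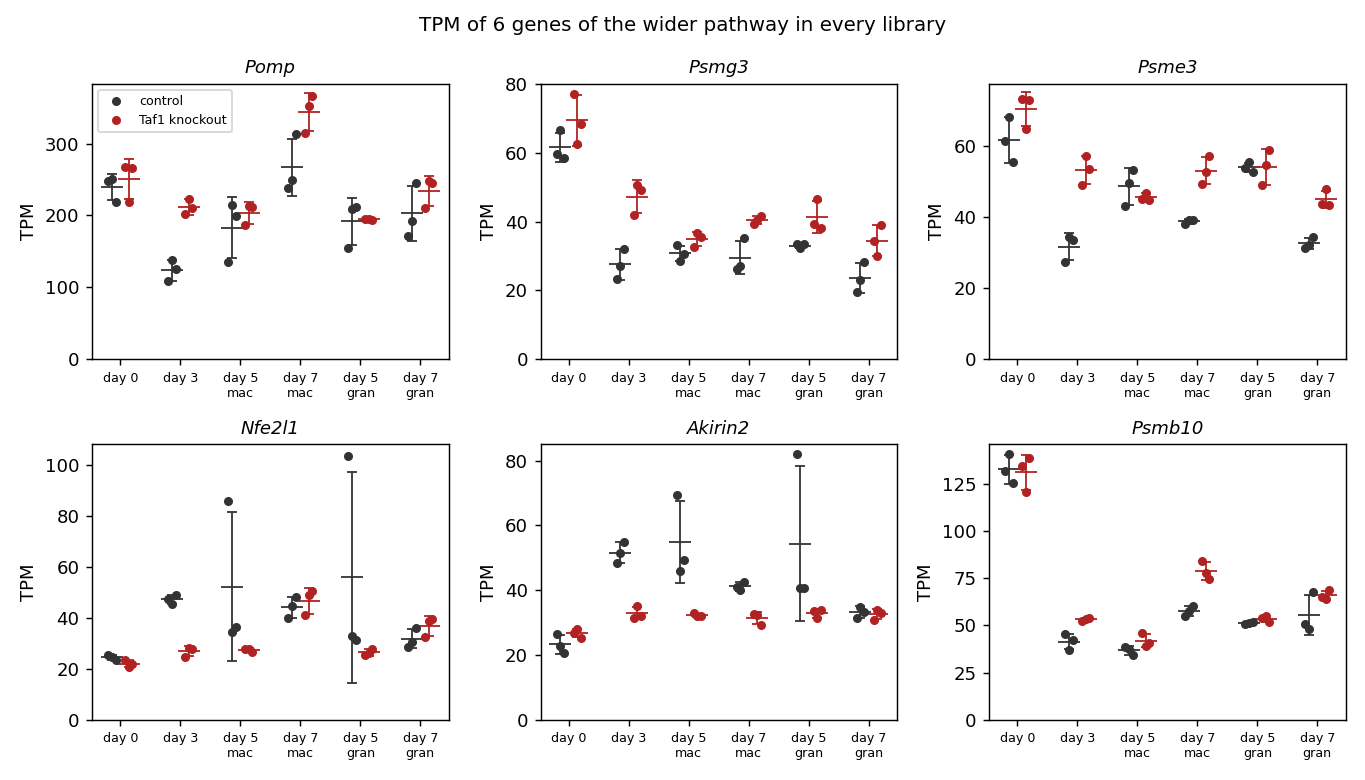
TPM (vertical axes, from 0) of 6 genes of the wider pathway in every library by stage, control in black and Taf1 knockout in red, with means and SDs (n = 3). Pomp, Psmg3 and Psme3 dip at day 3 in control libraries, and Nfe2l1 and Akirin2 are lower in the knockout at day 3. At day 5 of each course 1 control library lies far above the rest for Nfe2l1. For Akirin2 the highest library at day 5 of the macrophage course is also a control library.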

How the data were processed

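The authors deposited TPM for 24411 genes in 2 tables, 1 for each course, which share the 12 columns of day 0 and day 3. RSEM (no version named), DESeq2 1.38.3 and the build mm10 stand in the submitters' processing notes, and the gene annotation was not stated. Libraries were made from total RNA with a stranded kit, per the labels' protocols. TPM keeps no depth, so read numbers are unknown and no counting interval is given. Libraries held 10289 to 11226 genes at 1 TPM or more, and no libraries held identical values.

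A limma model (version 3.58.1, R 4.3.3) of log2(TPM + 1) had 1 mean per group and a trended variance, over the 24 libraries of a course or, between courses, the 12 day 7 libraries. The macrophage course fit gave the day 0 and day 3 results. Folds on this scale understate changes of low genes. The filter asked for 1 TPM or more in 3 or more libraries and left 11953 genes for the macrophage course, 11905 for the granulocyte course and 11269 for day 7. Benjamini-Hochberg adjustment ran over all of these genes in each of 18 comparisons, and 0.05 was the threshold. SDs are over 3 libraries. The script was tested on simulated data: of 100 genes changed by 1 on the log2 scale it recovered 82% to 91% over 14 comparisons, and of those changed by 0.5 it recovered 34% to 55%, and up to 6.82% of its calls in a comparison were false, above 5% in some comparisons.

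The members and lists were chosen with earlier results of these data known. Of 83 list symbols 79 matched. For each comparison a rule picked the members with the largest called changes in each direction and those called against the majority. It also picked Psmb5, Psmb6, Psmb7, Psmd14, Psmd2, Psmd4 and Psmc5. Outside the interaction comparisons, a largest change also had to have compared libraries that did not overlap. Lack of overlap in those genes was thus set by the choice. Of the wider lists, it picked the called genes with the smallest limma p in a knockout comparison. Not all of the genes picked for a comparison are described in the text. Members named in a comparison outside this rule were chosen after their values were seen. Alternatives were other pseudocounts (0.1 and 5 TPM), no filter or one of 5 TPM, scaling by median of ratios, fits on the compared groups alone, a replicate block, and each replicate left out. Same-numbered libraries deviated together, with every correlation over 0.1, in some comparisons. These were knockout against control at day 5 of the macrophage course (0.183 to 0.301) and day 7 against day 3 in the knockout of that course (0.158 to 0.189). The others were the courses at day 7 in control (0.267 to 0.637) and knockout (0.323 to 0.53). Between differently numbered libraries the highest correlations were 0.135, 0.0515, 0.433 and 0.346, in the same order. Between the courses at day 7, some differently numbered libraries thus correlated more than same-numbered ones. The labels do not say that numbers mark a mouse. Gene positions came from GENCODE M21 on mm10 and promoters from RefSeq, GRCm38.p6.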

Additional observations from a re-analysis of the deposited data

Results flagged for a closer look

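The change from day 0 to day 3 differed between genotypes, by the interaction term of the fit, for 19 of 36 proteasome genes. All 19 were higher in the knockout, against 15% of all genes tested higher and 17.3% lower. The change from day 3 to day 7 differed for 15 genes of macrophage cultures and 17 of granulocyte cultures, all lower in the knockout. Of all genes, 13.4% were lower and 21.8% higher in macrophage cultures, and 11.4% and 22.3% in granulocyte cultures. The named genes with the largest differences of log2 changes over the first 3 days were Psmc5 (0.95), Psmc1 (0.83) and Psmd7 (0.82). From day 3 to day 7 they were Psmd6 (−0.78), Psmd13 (−0.73) and Psmc1 (−0.71) for macrophage cultures and Psmd6 (−0.90), Psmc1 (−0.80) and Psmd13 (−0.79) for granulocyte cultures. All of these rest on the same 6 day 3 libraries.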

How the results depend on the processing

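TPM does not show how many reads support a value, so the depth behind the low genes Psma8 and Psmb11 is unknown. After median-of-ratios scaling the direction of the family turned in 2 comparisons: 8 genes were called at day 5 of the macrophage course (6 higher, 2 lower, against 0 and 11) and 11 at day 7 of the granulocyte course (2 higher, 9 lower, against 6 and 0). Scaling also moved the number called to 30 for day 7 against day 3 in granulocyte controls, 24 and 31 for the genotype differences from day 3 to day 7 in the macrophage and granulocyte course, 8 and 18 for the courses at day 7 in control and knockout cells, and 1 for the difference between genotypes in that comparison. The shares of all genes after scaling stand beside these counts in the results above. Fits on the compared groups alone gave 1 gene at day 0, 7 at day 5 of each course, and 3 at day 7 of the granulocyte course. The cause was not tested.

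Leaving out 1 library at a time, the genes called, in both directions together, numbered 1 to 5 at day 0, 24 to 28 at day 3, 7 to 10 and 6 to 13 at days 5 and 7 of the macrophage course, and 5 to 8 and 3 to 10 at those of the granulocyte course. They numbered 27 to 29 and 9 to 21 for day 3 against day 0 in control and knockout cells, 25 to 29 and 10 to 14 for day 7 against day 3 in the macrophage course, and 15 to 18 and 12 to 17 in the granulocyte course. For the genotype differences they numbered 17 to 20 from day 0 to day 3, and 13 to 17 and 16 to 20 from day 3 to day 7 of the macrophage and granulocyte course. Between courses at day 7 they numbered 9 to 29 in control and 22 to 27 in knockout cells, and 0 to 0 for their difference. In the main direction alone the ranges that differ from these were 26 to 29 lower for day 3 against day 0 in control cells, 23 to 28 and 8 to 13 higher for day 7 against day 3 in control and knockout cells of the macrophage course, 10 to 16 higher and 11 to 17 lower in those of the granulocyte course, and 16 to 19 lower for the genotype difference in the granulocyte course.

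With a replicate block, 30 and 32 genes were called between the courses at day 7 in control and knockout cells, against 25 and 28. The block moved no count of the family by over 1.5 times. The other pseudocounts and filters moved none of these counts by over 1.5 times either. Of 109 calls of proteasome genes picked by the rule for naming, 94 remained after scaling, 94 in fits on the compared groups alone, 108 with the block and 104 without a filter. Genes of the wider lists are not in this count. Over the fits that left out 1 library, with each call counted once per fit, 657 held and 87 were lost.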
